A study of Mus musculus with 28 samples.

Results

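The genes described here encode the nuclear subunits of the mitochondrial respiratory chain and of ATP synthase, measured in mouse germ cells, in cell lines and in whole testis. A gene was a member if its RefSeq symbol starts with Nduf, a subunit letter from a, b, c, s or v and a number, if it is Sdha, Sdhb, Sdhc or Sdhd, if it starts with Uqcr or Atp5, or if it belongs to the Cox4 to Cox8 series. The arrays measured 38731 features, named or unnamed genes, and 73 of them were members, each taken at its brightest probe. RefSeq holds 87 protein-coding symbols of this kind, and the other 14, among them Ndufs3, Uqcrc1, Uqcr10, Cox6b2 and Ndufa4l2, had no matched probe. Of the 73 members, 30 belong to complex I, 4 to complex II, 6 to complex III, 17 to complex IV and 16 to ATP synthase. The choice of members used no difference between groups.

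The respiratory chain passes electrons from NADH (complex I, NADH dehydrogenase) and from succinate (complex II, succinate dehydrogenase) through complex III, the cytochrome bc1 complex, to complex IV, cytochrome c oxidase, which reduces oxygen. Complexes I, III and IV pump protons across the inner mitochondrial membrane, and ATP synthase uses the gradient to make ATP. Most subunits are encoded in the nucleus and used in every tissue, but several small subunits of complex IV come in pairs of genes, one broadly expressed and one restricted to tissues such as heart, muscle, lung or testis. Male germ cells are known for such restricted forms, among them Cox8c and Cox7b2, and for a testis cytochrome c, Cyct.

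The data come from 28 single-colour arrays in 14 groups of 2. Primordial germ cells (PGC), the precursors of eggs and sperm, were taken from female and male embryos at E10.5, E13.5 and E17.5, all of the cross BDF1 x TgN(deGFP)18Imeg, whose transgene is named for a germ cell GFP reporter. Oogonia and spermatogonia came from BDF1 x Tg(Mvh-Venus)1Rbrc mice, with no age in the labels. The cultured groups were female and male EG cells (embryonic germ cells, Rb(X.2)2Ad X 129/Sv), a female ES line of 129/Sv (no5), a male ES line (TMA5) of F1 hybrid origin carrying TgN (deGFP)20Imeg with MSM/Ms, and GS cells (germline stem cells) of DBA/2 males. Each ES group is 1 line. Whole adult testis was from C57BL/6J. Strain therefore changes together with group in every comparison outside the PGC except spermatogonia against oogonia, and its part was not tested. The source field of the EG arrays names PGC of 12.5 dpc, and they were grouped by title.

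A level is the log2 processed signal of a probe minus the 75th percentile of that array, taken over 7227 probes well above background on all 28 arrays, so that 0 stands for that percentile. Levels of different probes are not compared with each other. Between 17.8% and 76.7% of probes were well above background per array, lowest in an E10.5 male array and highest in testis. The labels were set against marker genes. The germ cell gene Ddx4 lay between 0.02 and 1.24 in PGC of E13.5 and E17.5, oogonia, spermatogonia and testis, at -0.77 and 0.10 in GS cells and between -5.79 and -3.81 in EG and ES cells. The oocyte factor Figla was 0.93 and 1.06 in oogonia and at most -0.08 in every other array. The other oocyte markers set oogonia apart less. Gdf9 read -1.46 and -1.88 in oogonia and -1.73 and -1.63 in testis. Zp3 read -1.64 on both oogonia arrays and -1.79 on the first EG female array. On the spermatogonia arrays Zbtb16 was not well above background, while Gfra1 was on both. The protamine gene Prm1 was 4.30 and 4.40 in testis and not well above background in spermatogonia. Tnp1, a spermatid transition protein gene, was well above background on both spermatogonia arrays, at -2.52 and -2.85, and on both E17.5 male PGC arrays, at -2.29 and -2.55. Other cell types left signal in some groups: the summed level of the Sertoli markers was between 1.29 and 2.36 in E17.5 male PGC against -3.61 to -2.63 in E17.5 female PGC, and the blood gene Hba-a1 was 4.02 and 1.45 in E17.5 female PGC. In such bulk samples fewer cells of a type and less RNA per cell cannot be told apart.

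As a group the members were widely detected, and those detected on every array were steady. Of the 73, 64 were well above background on all 28 arrays, against 6196 of all 38731 features. In both replicates of some group 72 members reached that mark. The exception was Cox8b, a heart and muscle form, which was well above background on 2 of 28 arrays, with levels from -12.69 to -5.82, and entered no test. Over the 64 members the range between the highest and the lowest group mean had a median of 1.68, from 0.83 to 5.28, while over all 6196 features measured on every array this median was 2.56. The spread between the 2 arrays of a group had a median SD of 0.13 for the members and 0.14 for all these features. Some members outside the 64 had wider ranges, up to 10.16 for Cox8c, which was dim on some arrays. The 5 flattest members were Ndufa9 with a range of 0.83, Cox5b with 0.87, Atp5j2 with 0.88, Ndufb9 with 0.93 and Cox4i1 with 0.95. Ndufa9 and Ndufb9 are complex I subunits, and Cox4i1 and Cox5b are core-associated subunits of complex IV.

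Among the 64 members detected on every array, the 10 widest ranges belonged to Uqcrq (5.28), Cox7a1 (4.65), Cox7b (4.07), Ndufa1 (3.84), Cox7c (3.56), Ndufc1 (3.27), Atp5md (3.17), Atp5b (3.03), Cox8a (3.01) and Atp5g1 (2.75). For Uqcrq, a small complex III subunit, the range rests on 1 spot: the first E13.5 female array read -5.28, the second read 0.97, and the other 26 arrays read -0.15 to 3.21, while another Uqcrq probe read 0.51 on that first array. Oogonia had the highest mean for 20 of the 64 members, or 31.2%, against 13% of all 6196 features. The lowest mean lay in E17.5 male PGC for 16 members, or 25%, against 8.83% of all features, and in E17.5 female PGC for 10, or 15.6%, against 4.95%. Testis held the lowest mean for 11 members, or 17.2%, and for 29% of all features.

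**Figure D1:**
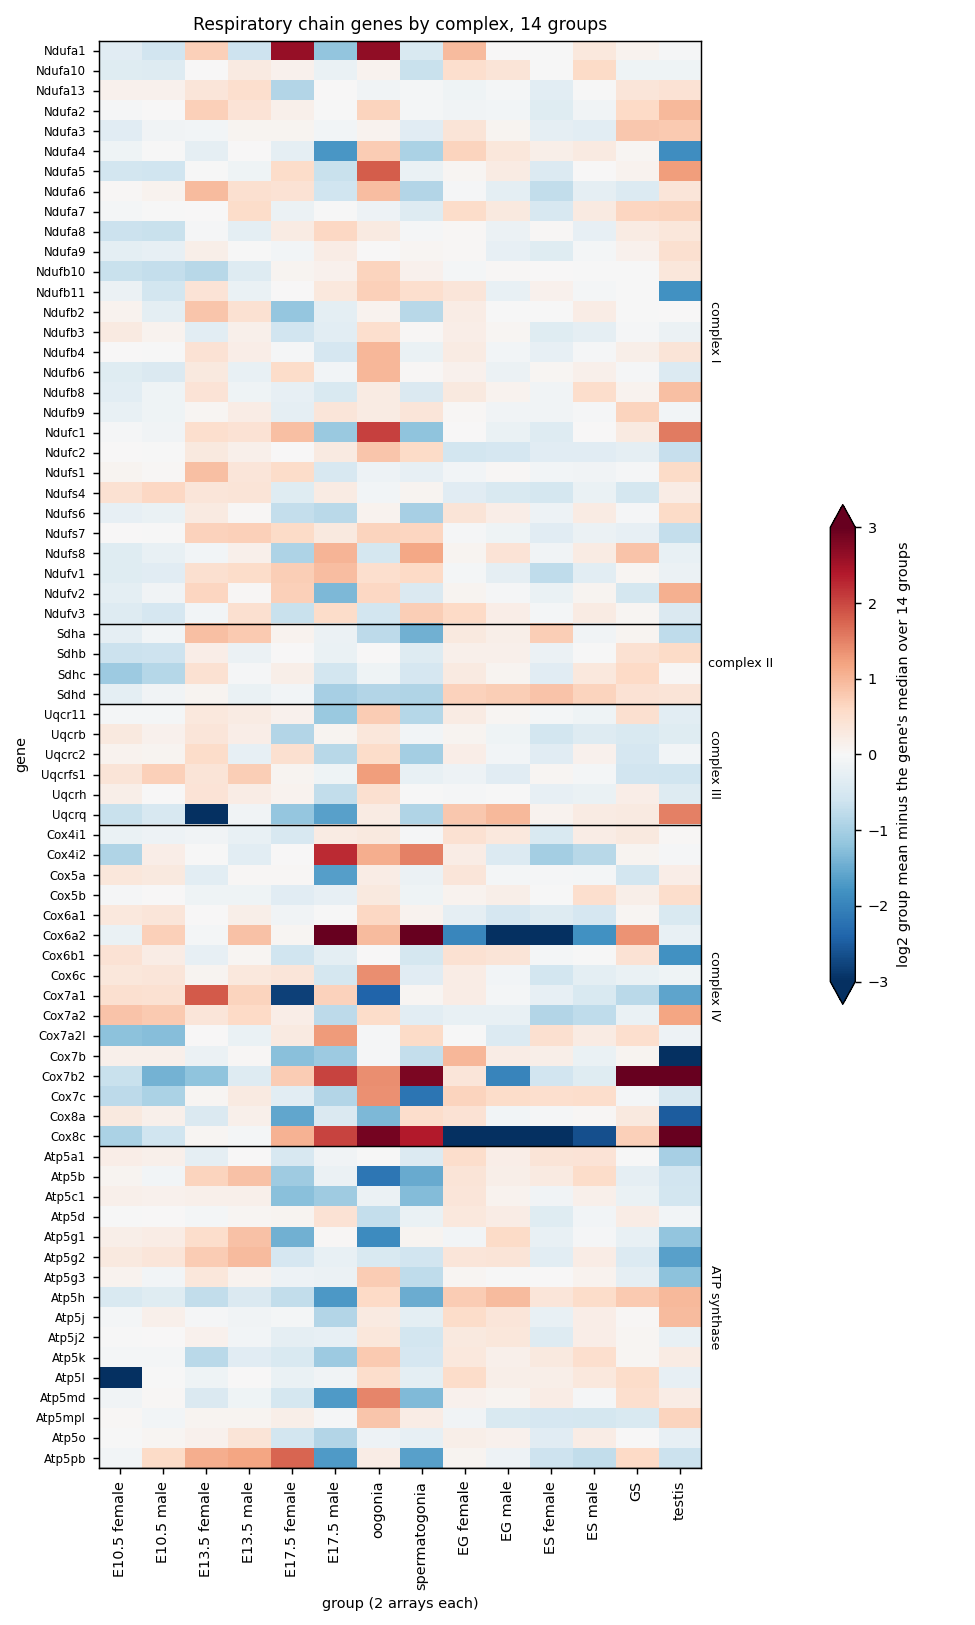
Each row is a respiratory chain member, ordered by complex, each column a group, and the colour is the group mean minus that gene's median over the 14 groups, in log2 units, red for higher and blue for lower. Most rows stay pale, oogonia hold the highest mean for 20 of the 64 members detected on every array, and E17.5 male PGC the lowest for 16.

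The widest contrasts lay in complex IV, where restricted and broad forms of a subunit moved apart. Cox8c, the testis form of subunit VIII, read 1.76 and 1.67 in testis, -1.59 and -1.38 in oogonia, -2.01 and -1.96 in spermatogonia, and -2.16 and -2.53 in E17.5 male PGC. It read -5.84 to -4.11 at E10.5, -4.60 to -4.19 at E13.5 and -8.87 to -6.84 in EG and ES cells. Testis thus stood above every other group and the pluripotent lines below all of them. Cox8a, the broad form, went the other way in testis, where it read 0.01 and -0.13. It was also low in oogonia, at 1.04 and 1.12, and in E17.5 female PGC, at 1.11 and 0.64, whereas the other 22 arrays read 1.63 to 2.98.

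Cox7b2 and Cox7b, the restricted and the broad form of subunit VIIb, showed the same opposition in testis. Cox7b2 read 1.94 and 2.02 in testis, -0.85 and -0.97 in spermatogonia and -1.44 and -0.07 in GS cells, and -5.76 to -1.53 in all other arrays. Cox7b read -3.93 and -4.13 in testis and -2.76 to 0.31 in all other arrays. From spermatogonia to testis Cox8c was higher by 3.70 ± 0.60 (SE; adjusted p = 9.85e-05) and Cox8a lower, with a log2 change of -3.01 ± 0.33 (adjusted p = 1.9e-06). Cox7b2 was higher by 2.89 ± 0.60 (adjusted p = 0.000824, and 0.0955 with slide as a random block), and Cox7b changed by -2.35 ± 0.42 (adjusted p = 0.000222). The spermatid markers, whose summed level was 4.69 to 4.76 in testis and -2.76 to -2.47 in spermatogonia, moved with all 4 changes, and their part was not tested.

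**Figure D2:**
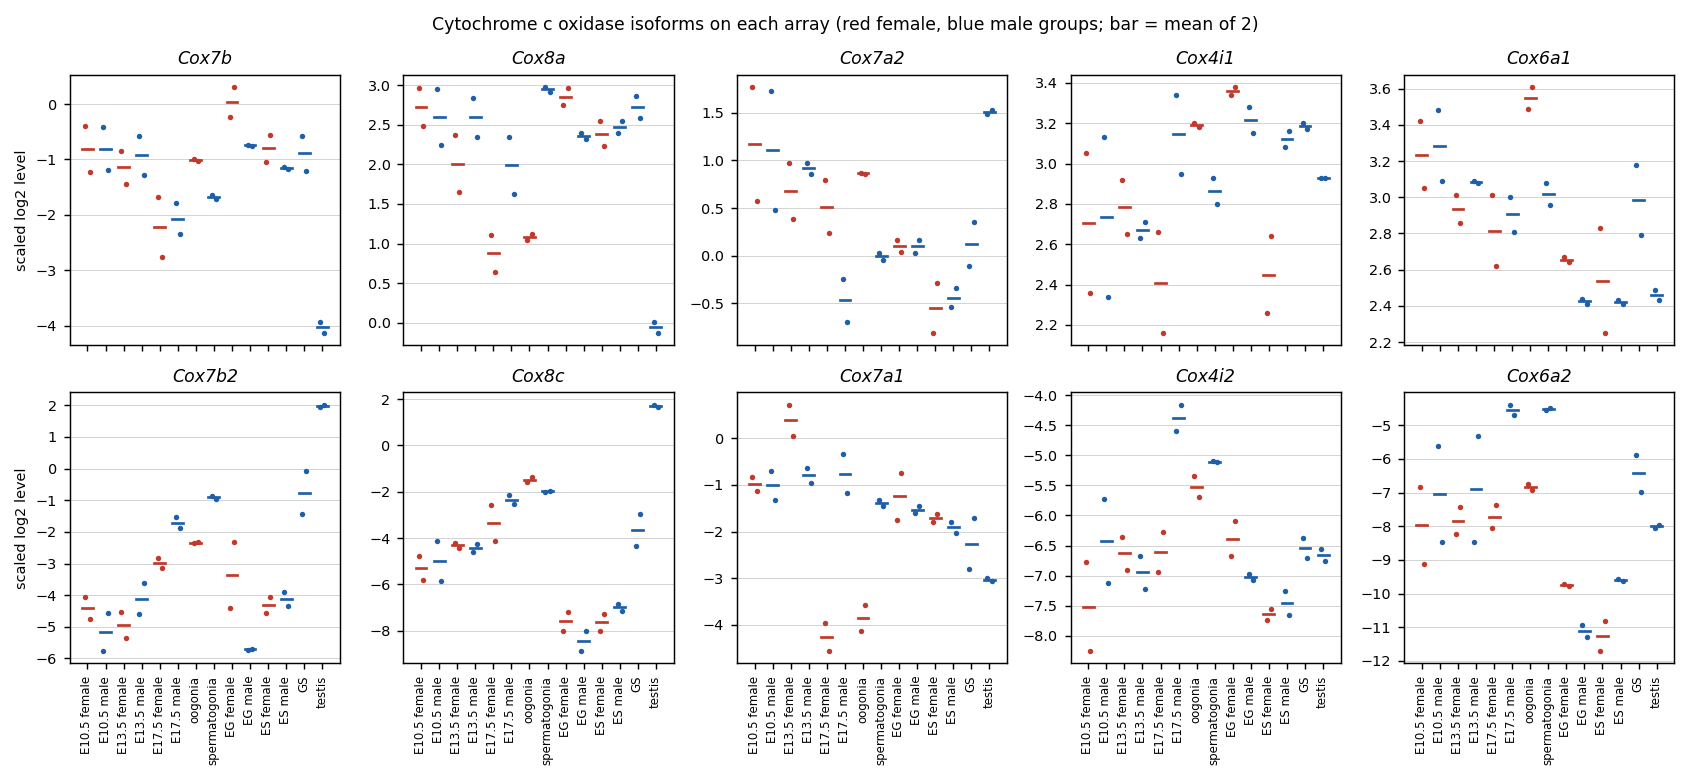
Each panel is a complex IV gene with a restricted or a broad form, each point an array, red for female and blue for male groups, with groups along the horizontal axis, the scaled log2 level on the vertical axis and a bar at the mean of 2. In testis Cox8c and Cox7b2 lie at 1.67 to 2.02 and Cox7b at -4.13 and -3.93, while Cox7a1 lies at -4.56 and -3.96 in E17.5 female PGC.

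The restricted forms known from heart and muscle followed other patterns. Cox7a1 read 0.72 and 0.05 in E13.5 female PGC but -3.96 and -4.56 in E17.5 female PGC and -4.13 and -3.58 in oogonia. In males it read -0.63 and -0.96 at E13.5, -0.34 and -1.18 at E17.5, and -1.33 and -1.45 in spermatogonia, so that females were higher at E13.5 and males from E17.5 on, with no overlap at either stage or in the gonia. Its broad partner Cox7a2 read 0.97 and 0.39 in E13.5 female PGC and 0.79 and 0.24 in E17.5 female PGC, which overlap. Cox6a2 was well above background on 11 of 28 arrays: it read -4.39 and -4.70 in E17.5 male PGC, -4.56 and -4.49 in spermatogonia, and at most -5.33 elsewhere. Cox4i2, the lung form of subunit IV, was well above background on 19 arrays and read -4.59 and -4.16 in E17.5 male PGC, -5.10 and -5.11 in spermatogonia and -5.34 and -5.70 in oogonia. The cardiac and muscle genes Myh6 and Ckm were both well above background in these male groups, with a summed level of -1.61 to -1.29 in E17.5 male PGC and -3.38 to -3.26 in spermatogonia, against -7.05 to -6.25 in E17.5 female PGC and -8.72 to -7.58 in oogonia. Their part in the levels of Cox6a2, Cox4i2 and Cox7a1 was not tested.

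The windows around the start sites of these switching genes are shown, from 250 bases before to 50 after each start, as RefSeq gives them for GRCm38.p6. They belong to the subunit VIIb pair, to Cox8a, and to the members with the widest difference between the sexes at E17.5, Cox7a1 and Ndufa1. The windows are chr5:71548156-71548455 on the minus strand for Cox7b2, chrX:106015450-106015749 on the plus strand for Cox7b, chr19:7217567-7217866 on the minus strand for Cox8a, chr7:30183921-30184220 on the plus strand for Cox7a1 and chrX:37191189-37191488 on the minus strand for Ndufa1. Capitals mark matches to the ETS motif CCGGAAG on either strand, and only Cox8a held any, with first bases 5 before and 33 after the start.
Cox7b2: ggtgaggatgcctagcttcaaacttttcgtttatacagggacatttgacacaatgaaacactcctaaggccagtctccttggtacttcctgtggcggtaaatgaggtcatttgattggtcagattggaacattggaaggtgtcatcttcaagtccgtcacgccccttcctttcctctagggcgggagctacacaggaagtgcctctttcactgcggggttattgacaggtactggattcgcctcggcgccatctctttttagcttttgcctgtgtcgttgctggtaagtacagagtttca
Cox7b: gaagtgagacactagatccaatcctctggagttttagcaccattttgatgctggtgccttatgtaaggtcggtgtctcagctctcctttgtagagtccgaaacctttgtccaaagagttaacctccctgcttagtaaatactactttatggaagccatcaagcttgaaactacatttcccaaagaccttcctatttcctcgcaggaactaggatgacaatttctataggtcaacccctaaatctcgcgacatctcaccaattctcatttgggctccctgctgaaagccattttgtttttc
Cox8a: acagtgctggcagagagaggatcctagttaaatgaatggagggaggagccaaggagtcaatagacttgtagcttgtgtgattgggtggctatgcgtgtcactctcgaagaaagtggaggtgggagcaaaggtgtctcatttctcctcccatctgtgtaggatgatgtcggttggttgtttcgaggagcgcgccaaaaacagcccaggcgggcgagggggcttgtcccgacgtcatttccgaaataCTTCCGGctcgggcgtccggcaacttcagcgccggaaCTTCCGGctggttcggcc
Cox7a1: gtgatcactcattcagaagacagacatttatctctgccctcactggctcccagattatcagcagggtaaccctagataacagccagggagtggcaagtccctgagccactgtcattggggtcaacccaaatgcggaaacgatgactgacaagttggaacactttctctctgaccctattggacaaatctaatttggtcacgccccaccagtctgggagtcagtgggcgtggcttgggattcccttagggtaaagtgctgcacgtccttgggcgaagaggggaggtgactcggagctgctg
Ndufa1: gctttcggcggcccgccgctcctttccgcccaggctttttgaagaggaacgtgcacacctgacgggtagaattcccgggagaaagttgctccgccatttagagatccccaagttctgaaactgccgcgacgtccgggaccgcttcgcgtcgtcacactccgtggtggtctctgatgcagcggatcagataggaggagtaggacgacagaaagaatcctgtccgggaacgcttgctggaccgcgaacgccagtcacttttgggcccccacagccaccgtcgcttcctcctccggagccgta

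None of the 5 windows held NRF1, YY1, ERR, CRE or E-box letters, while CCAAT on either strand, left in lower case, was found 3 times for Cox7b2, 2 times each for Cox7b and Cox7a1, 1 time for Cox8a and not for Ndufa1. RefSeq windows were matched for 58 of the 73 members and compared with all 27025 genes that have one. Both strands were searched, and a gene counted if any of its windows held the letters. Overlapping matches of different motifs were each counted. The YY1 letters AAGATGGC were found for 10 members (17.2%, against 3.19% of all genes). The ETS letters CCGGAAG were found for 14 (24.1%, against 9.93%), and the palindromic NRF1 motif for 3 (5.17%, against 1.07%). The ERR letters TCAAGGTCA were found for 2 (3.45%, against 0.466%) and the CRE letters TGACGTCA for 3 (5.17%, against 2.03%). The E-box CACGTG was found for 6 (10.3%, against 8.09%) and CCAAT for 27 (46.6%, against 41.1%). Counting each gene by its window with the most CG pairs, the members had a median of 19 and all genes a median of 8. The part of this CG content in the motif shares was not tested. A match is a description of the letters and says nothing of binding.

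Between E10.5 and E13.5, when PGC settle in the gonads, 16 of 70 tested members rose and limma called 0 lower, the sexes pooled. Among all genes tested 23.3% were higher and 10.9% lower (34.2% in either direction), so the share of rising members was near the background. In either direction 27 members had an unadjusted p under 0.05. Complex I held 10 of the 16, out of 30 tested, and complex II held 2 of 4, whereas complex III had 0 of 6, complex IV 2 of 14 and ATP synthase 2 of 16. The median change of the members was 0.32 and that of all genes 0.24, and among genes detected on every array the medians were 0.27 and 0.02.

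Ndufv1, which binds NADH in complex I, read 1.5 to 1.62 on the 4 arrays of E10.5 and 2.29 to 2.53 on the 4 of E13.5. The stages did not overlap, and the change was 0.87 ± 0.17 (adjusted p = 0.00103). Sdhc, a membrane anchor of complex II, read -3.21 to -2.50 at E10.5 and -1.84 to -1.25 at E13.5, a change of 1.18 ± 0.17 (adjusted p = 6.7e-05). Sdhb, its iron-sulfur subunit, read -1.38 to -1.19 and then -0.85 to -0.37, and rose by 0.65. Ndufb2 rose by 0.74 ± 0.18 (adjusted p = 0.00434, and 0.0532 with scan day as a block) and Ndufs7 by 0.69 ± 0.22 (adjusted p = 0.0214, up to 0.124 without 1 array, an E13.5 female one). Cox7a1 rose by 0.80 ± 0.30 with overlapping groups (adjusted p = 0.049), a call lost without any of 6 single arrays (adjusted p up to 0.208). Levels of Atp5b, the catalytic subunit of ATP synthase, split by scan day at E10.5, with 1.37 and 1.24 on one day and 3.01 and 2.79 on the other.

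The first and second arrays of each PGC group were scanned on different days, and the members' median change within a day was 0.17 and 0.33, against 0.20 and 0.19 for all genes. With scan day as a block 5 members were higher and 0 lower, and without the first E13.5 female array 5 were higher, without the first E13.5 male array 8. A percentile over all probes gave 2 higher and 2 lower, a replicate block 1 lower, and a fit of these groups alone 0 higher. All p-values are limma's, adjusted by Benjamini-Hochberg over all genes tested, and measure only the spread between the arrays, which may be technical, since the labels do not say whether they are separate animals.

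From E13.5 to E17.5, when female germ cells enter meiosis and male ones stop dividing, more members fell than rose in each sex. In females 11 of 70 tested members fell (15.7%) and 3 rose (4.29%), with 15.4% of all genes lower and 19.6% higher (35% in either direction). The female share of falling members was thus near the background, and that of rising members lay below it. In males 24 of 71 fell and 5 rose, with 13.2% of all genes lower and 30.7% higher (43.8% in either direction). Median changes were -0.24 for the members against 0.11 for all genes in females, and -0.48 against 0.50 in males. Among genes detected on every array these medians were -0.27 and -0.03 in females, -0.54 and -0.06 in males.

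In females 4 of 30 tested members fell in complex I, 0 of 4 in complex II, 1 of 6 in complex III, 2 of 14 in complex IV and 4 of 16 in ATP synthase. Atp5g1, one of the genes for the membrane ring subunit c, read 2.09 and 1.69 at E13.5 and 0.26 and -0.39 at E17.5, a change of -1.96 ± 0.32 (adjusted p = 0.000215). Atp5c1, the central stalk subunit gamma, read 2.11 and 2.25 and then 0.88 and 0.67, a change of -1.40 ± 0.21 (adjusted p = 9.44e-05). Atp5b changed by -1.74 ± 0.50 (adjusted p = 0.0129, and up to 0.124 without the second E13.5 or the first E17.5 array). In complex I Ndufb2 read 0.41 and 0.09 at E13.5 and -1.48 and -2 at E17.5, a change of -1.99 ± 0.25 (adjusted p = 2.32e-05). The drop of Cox7a1 described above was -4.65 ± 0.42 (adjusted p = 9.13e-07), the widest of all members in any comparison. Ndufa1, a small membrane subunit of complex I encoded on the X chromosome, rose from 1.07 and 0.85 to 2.84 and 2.85, by 1.88 ± 0.32 (adjusted p = 0.000333). Cox7b2 and Ndufb10 were called higher as well, at 1.98 ± 0.60 and 0.90 ± 0.30, but with scan day as a block their adjusted p were 0.0607 and 0.0628, and without the first E17.5 female array Ndufb10 was at 0.53 (adjusted p = 0.268). The summed level of the blood markers lay between -6.12 and -1.25 in E13.5 female PGC and between 1.49 and 4.06 in E17.5 female PGC, and their part in these changes was not tested.

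In males the members that fell came from every complex: 8 of 30 in complex I, 1 of 4 in complex II, 4 of 6 in complex III, 4 of 16 in complex IV and 7 of 15 in ATP synthase. Ndufa4, now assigned to complex IV but counted here with complex I by its name, read 0.96 and 1.04 at E13.5 and -0.59 and -0.95 at E17.5, a change of -1.77 ± 0.25 (adjusted p = 4.91e-05). Atp5md, a small membrane subunit of ATP synthase, changed by -1.58 ± 0.26 (adjusted p = 0.000174), Ndufc1 by -1.57 ± 0.33 (adjusted p = 0.00151) and Cox5a by -1.68 ± 0.36 (adjusted p = 0.00166, and 0.0546 with scan day as a block). The called complex III members were Uqcr11 at -1.35, Uqcrh at -0.96, Uqcrfs1, the Rieske iron-sulfur protein, at -0.87, and Uqcrc2 at -0.57. All 5 that rose were complex IV or complex I genes, and 3 were restricted forms. Cox7b2 rose by 2.41 ± 0.60 (adjusted p = 0.00446) and Cox8c by 2.09 ± 0.60 (adjusted p = 0.0111, and up to 0.0682 without the first E17.5 male array). Cox4i2 was at least 2.74-fold higher at E17.5 (adjusted p = 0.000489), a bound set against the dimmest signals still well above background on the E13.5 male arrays, where it was not well above background. The summed level of the Sertoli markers lay between -1.16 and -0.09 in E13.5 male PGC and between 1.29 and 2.36 in E17.5 male PGC, and their part was not tested.

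Within the scan day of the first arrays and that of the second arrays the members' median change was -0.24 and -0.27 in females, against -0.01 and 0.24 for all genes. In males it was -0.39 and -0.53, against 0.38 and 0.53. With scan day as a block 1 member was higher and 11 lower in females, 4 higher and 14 lower in males. The male count of falling members was 9 without the second E17.5 array and 13 without the first E13.5 array, and that of rising ones 3 without the first E17.5 or the first E13.5 array. The female count of rising members was 1 without the first E17.5 array. Scaling moved the male counts, to 2 higher and 38 lower where the percentile covered all probes, to 1 and 15 after normexp background correction and to 2 and 1 in the deposited table. Female counts became 1 and 10 after normexp and 0 and 3 in the deposited table. Fits of the compared groups alone, 2 arrays against 2, called 1 higher and 1 lower in females and 0 in either direction in males.

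The change with stage was then compared between the sexes by an interaction term. It differed for 15 of 72 members, in 5 more positively and in 10 more negatively in males, against 28.4% of all genes, so the members' share lay below the background. The widest was Cox7a1, with a difference of 4.69. Atp5pb, a stalk subunit of ATP synthase, had a fitted difference of -3.56, which is no exact size, since the gene was dim: it was well above background on 20 of 28 arrays, read -9.02 and -8.41 in E17.5 male PGC, where it was not well above background, and -5.17 and -5.35 in E17.5 female PGC. Ndufa1 rose in females and read -0.26 and -0.50 at E13.5 and -1.15 and -0.75 at E17.5 in males, a difference of -2.46. Ndufa4 (-1.79), Ndufc1 (-1.95) and Ndufv2 (-1.46) differed in the same direction. These 6 calls held without each of the 8 arrays in turn and with scan day as a block, which gave 7 calls in all, whereas Cox5a at -2.03 had an adjusted p of 0.115 with that block. For Cox5a the first E13.5 female array read 1.55 and the second 2.86, while its other probe read 2.92 and 2.83 there and changed by -0.71 in females and -1.62 in males.

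**Figure D3:**
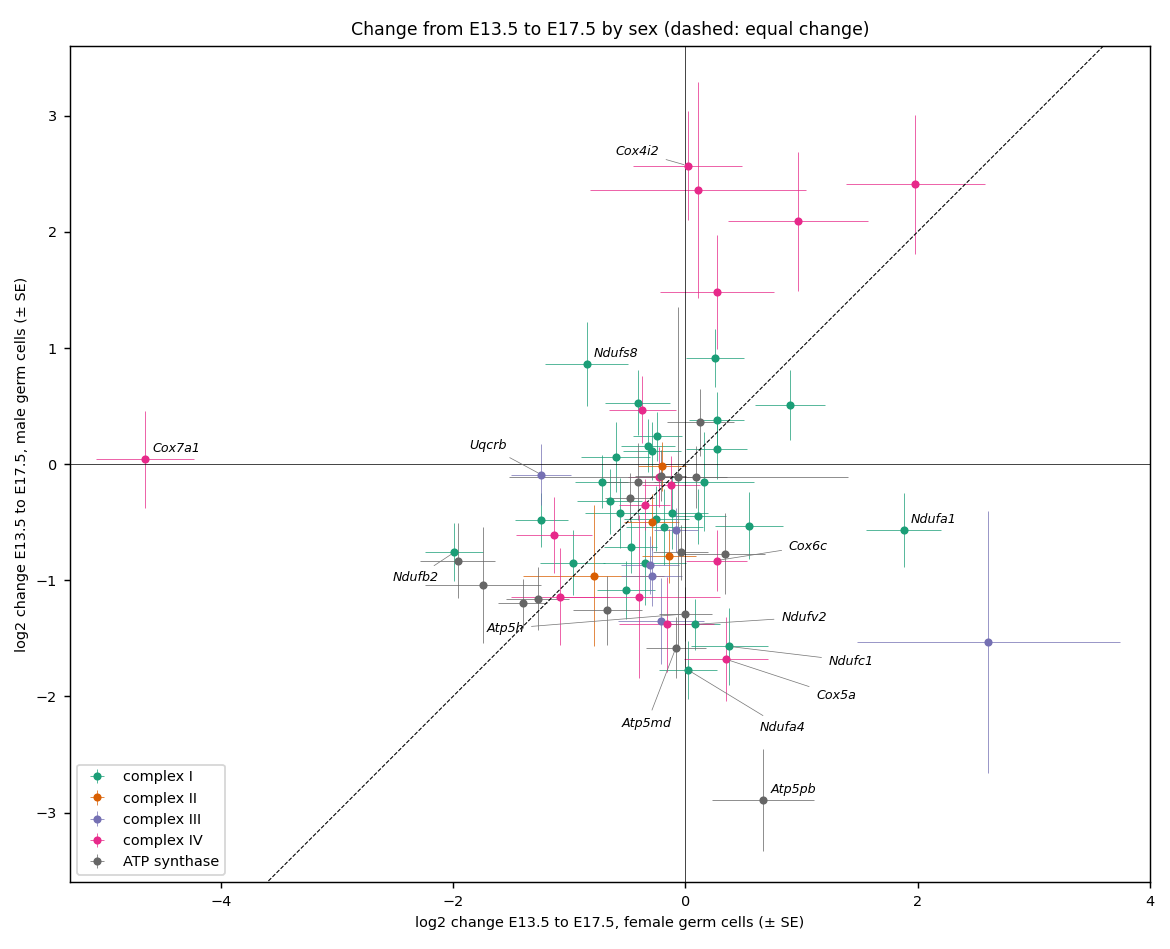
Each point is a member, with the log2 change from E13.5 to E17.5 in female PGC on the horizontal axis and in male PGC on the vertical axis, bars show 1 SE, colours give the complex, and names mark members whose changes differed between the sexes. Cox7a1 lies far to the left, at -4.65 in females and 0.04 in males, and Ndufa1 far to the right, at 1.88 in females.

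At E17.5 the sexes were compared directly, and again as spermatogonia against oogonia, called the gonia here after their labels. These comparisons share no arrays. The labels give no age for the gonia. The oocyte markers Figla, Gdf9 and Zp3 were all higher in oogonia than in E17.5 female PGC, Figla at 0.93 and 1.06 against -0.55 and -0.08. In the gonia a difference in stage therefore cannot be told apart from one of sex. At E17.5, 13 of 72 tested members were higher in males and 19 lower, with 30.2% of all genes higher and 20.9% lower (51.1% in either direction). In spermatogonia 5 were higher than in oogonia and 24 lower, with 31.6% of all genes higher and 16.7% lower (48.3% in either direction). The median change was -0.07 for the members against 0.27 for all genes at E17.5, and -0.52 against 0.32 in the gonia. Of the 32 members called at E17.5 and the 29 called in the gonia, 18 were called in both with the same sign, which is 56.2% of the first and 62.1% of the second list. For all genes these shares were 69.1% and 66.7%. Of the 18, 5 were higher and 13 lower in male cells, and 1 further member, Ndufb2, was called in opposite directions (0.88 at E17.5, -0.95 in the gonia).

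The members lower in male cells were mostly subunits of complexes I and III and of ATP synthase, which also hold most members tested (30, 6 and 16 of 72). Ndufa1 read 2.84 and 2.85 in E17.5 female PGC and 2.76 and 3.01 in oogonia, against -1.15 and -0.75 in E17.5 male PGC and -0.15 and -0.28 in spermatogonia. The difference was -3.80 ± 0.32 at E17.5 (adjusted p = 2.48e-07) and -3.10 ± 0.32 in the gonia (adjusted p = 1.31e-06). Ndufc1, another small complex I subunit, read 0.88 and 0.33 in E17.5 females, 1.75 and 1.78 in oogonia, -1.10 and -1.74 in E17.5 males and -1.57 and -1.44 in spermatogonia, with differences of -2.02 ± 0.33 and -3.27 ± 0.33. Ndufv2, an iron-sulfur subunit of the NADH arm, differed by -2.07 ± 0.22 at E17.5 (adjusted p = 2.86e-06) and by -1.05 in the gonia. Atp5md read 1.18 and 1.39 in oogonia and -1.5 and -1.51 in spermatogonia, a difference of -2.79 ± 0.26 (adjusted p = 3.77e-07), and at E17.5 it differed by -1.19. Atp5h, the stalk subunit d, differed by -0.99 at E17.5 and by -2.08 ± 0.23 in the gonia. Uqcrc2, a core protein of complex III, differed by -1.31 and -1.57, and Cox6c by -0.88 and -1.72.

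Cox7c, a small complex IV subunit, was lower in spermatogonia, at -5.35 and -5.25, than in oogonia, at -1.94 and -1.55, by -3.56 ± 0.70 (adjusted p = 0.000586). At E17.5 the sexes overlapped for Cox7c, with -4.03 and -2.83 in females and -4.79 and -3.18 in males. Atp5pb was at least 2.21-fold lower in males at E17.5 (adjusted p = 1.28e-05).

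The members higher in male cells in both comparisons were Cox7a1, Cox8a, Ndufs8, Ndufv3 and Atp5g1. Ndufs8, an iron-sulfur subunit of complex I, read 1.14 and 0.79 in E17.5 males and 1.18 and 1.04 in spermatogonia, against -0.59 and -1.38 in E17.5 females and -0.47 and -0.66 in oogonia. Its difference was 1.95 ± 0.36 at E17.5 (adjusted p = 0.000388) and 1.68 ± 0.36 in the gonia (adjusted p = 0.00128). Atp5g1 read 1.64 and 1.19 in E17.5 males and 1.49 and 1.43 in spermatogonia, against 0.26 and -0.39 and -0.46 and -0.56 in the female groups, with differences of 1.48 ± 0.32 and 1.96 ± 0.32. Its paralogue Atp5g3, which encodes the same mature protein, went the other way in the gonia, with 3.14 and 3.11 in oogonia and 1.57 and 1.63 in spermatogonia, a difference of -1.52, and overlapped at E17.5. Cox7a1 differed by 3.5 ± 0.42 (adjusted p = 7.72e-06) and 2.47 ± 0.42 (adjusted p = 0.000173), and Cox8a by 1.11 ± 0.33 (adjusted p = 0.0109, up to 0.135 without 1 array, the first male one) and 1.87 ± 0.33 (adjusted p = 0.000235). At E17.5 Cox4i2 differed by 2.23 ± 0.47, though it was well above background on 1 of the 2 female arrays. Cox6a2 was at least 3.71-fold higher in males (adjusted p = 0.01, but 0.117 with scan day as a block).

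**Figure D4:**
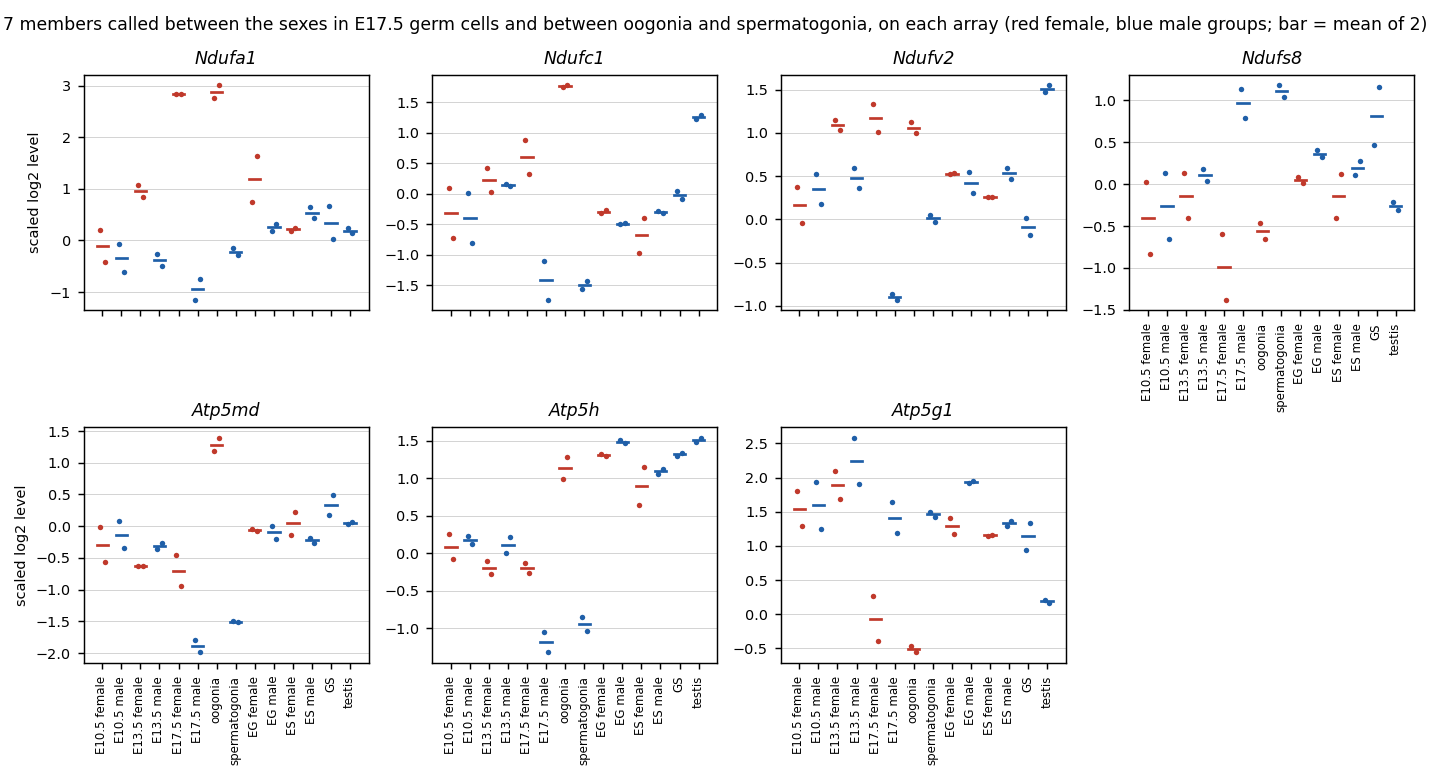
Each panel is a member called in the same direction in both sex comparisons, each point an array, red for female and blue for male groups, with the 14 groups along the horizontal axis, the scaled log2 level on the vertical axis and a bar at the mean of 2. Ndufa1 lies at 2.76 to 3.01 in E17.5 female PGC and oogonia and at -1.15 to -0.15 in E17.5 male PGC and spermatogonia, and Ndufs8 and Atp5g1 lie higher in those male groups.

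At E17.5 the members' median difference was -0.10 and -0.01 within the scan day of the first and of the second arrays, against 0.29 and 0.23 for all genes. With scan day as a block 8 members were higher and 15 lower. Without the second E17.5 female or the first E17.5 male array 7 were higher. In the gonia the counts stayed at 5 higher and 21 to 23 lower without any 1 array, and the 5 largest calls in each direction and that of Ndufa4 held in each of these fits and with slide as a random block, which gave 5 higher and 18 lower. Oogonia and spermatogonia each lie on a slide of their own, so slide and group cannot be told apart. The summed level of the Sertoli markers lay between -1.11 and -0.99 in spermatogonia and between -3.58 and -3.28 in oogonia, and their part in these differences was not tested. With a percentile over all probes 5 were higher and 22 lower at E17.5 and 3 and 45 in the gonia, and the deposited table gave 2 and 12 at E17.5 and 0 and 33 in the gonia. A fit of the E17.5 groups alone gave 5 and 8. A second Ndufa6 probe changed by 0.25 in the gonia where the first changed by -1.79.

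Oogonia were set against E17.5 female PGC and spermatogonia against E17.5 male PGC. In oogonia 17 of 72 tested members were higher and 2 lower, with 5.46% of all genes higher and 12.3% lower (17.7% in either direction). The median change was 0.49 for the members and -0.27 for all genes, and 0.48 against -0.12 among genes detected on every array, where 84.4% of the members and 43.7% of the genes had a positive change. The higher members were 8 of 30 in complex I, 2 of 6 in complex III, 2 of 16 in complex IV and 5 of 16 in ATP synthase. Atp5md read -0.46 and -0.95 in E17.5 female PGC and 1.18 and 1.39 in oogonia, a change of 1.99 ± 0.26 (adjusted p = 0.00048). Atp5h read -0.13 and -0.26 and then 0.99 and 1.29, a change of 1.33 ± 0.23 (adjusted p = 0.00175). Ndufa5 rose by 1.28 ± 0.29 (adjusted p = 0.00848), Ndufb2 by 1.28 ± 0.25 (adjusted p = 0.00381) and Cox8c by 1.85 ± 0.60 (adjusted p = 0.0448), which was 1.07 without the second E17.5 female array. The lower members were Sdhd, a membrane anchor of complex II, at -0.80 ± 0.23 and -0.5 without that array, and Atp5pb at -1.54 ± 0.44, both lost without each of several single arrays (adjusted p up to 0.272 for Sdhd and 0.133 for Atp5pb).

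The counts in oogonia rest on few arrays. The number of higher members was 4 without the second E17.5 female array, 6 without the first oogonia array and 5 without the second, and 18 without the first E17.5 female array, while that of lower members was 0 or 1. Of the named calls, Atp5md and Atp5h held in each of these fits and with slide as a random block, which gave 2 higher and 0 lower; Ndufa5, Ndufb2 and Cox8c did not (adjusted p up to 0.0846, 0.0717 and 0.383). Another scaling gave 30 higher with a percentile over all probes, 18 with quantile normalization, 16 with normexp and 3 in the deposited table, each with 0 lower, while a fit of these groups alone called 0 in either direction. Blood markers had a summed level of 1.49 to 4.06 in E17.5 female PGC and -2.88 to 1.93 in oogonia. Their part in the changes in oogonia was not tested.

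In spermatogonia, limma called 3 of 71 members higher and 0 lower, with 6.09% of all genes higher and 8.08% lower (14.2% in either direction). In either direction 13 members had an unadjusted p under 0.05. The median change was 0.02, against -0.11 for all genes. Cox5a, a matrix-facing complex IV subunit, read 1.09 and 0.64 in E17.5 male PGC and 2.58 and 2.07 in spermatogonia, a change of 1.46 ± 0.36 (adjusted p = 0.0152). Ndufv2 rose by 0.91 ± 0.22 and Ndufa4 by 0.81 ± 0.25. All 3 were also called lower in E17.5 male PGC than in E13.5 male PGC, a comparison that shares the E17.5 arrays. The higher count was 1 or 0 without any 1 array, 0 with slide as a random block or in a fit of these groups alone, and a replicate block added 1 lower member.

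EG cells are pluripotent lines grown from PGC, and they were compared with E13.5 PGC and with ES cells. Against E13.5 PGC 10 of 71 members were higher and 14 lower, with 17.8% of all genes higher and 24% lower (41.8% in either direction). The median change was -0.03, against -0.19 for all genes, and it was 0.11 and 0.62 with a percentile over all probes and in the deposited table. Complex I held 9 of the 14 that were lower and ATP synthase 4 of the 10 that were higher. Atp5h read -0.28 to 0.22 in E13.5 PGC and 1.30 to 1.51 in EG cells, a change of 1.44 ± 0.16 (adjusted p = 3.26e-06). Sdhd read -1.31 to -0.95 and then -0.41 to -0.31, a change of 0.78 ± 0.16 (adjusted p = 0.0011). Ndufa6, a complex I subunit, read 1.21 to 1.92 and then 0.48 to 0.83, a change of -0.87 ± 0.18 (adjusted p = 0.000918), and Ndufs4 changed by -0.77 ± 0.16 (adjusted p = 0.00125). Cox8c changed by -3.65 ± 0.43 (adjusted p = 4.78e-06), with 3 of the 4 EG arrays still well above background. The higher value of Uqcrq, 2.83, was 1.27 without the deviant array (adjusted p = 0.000342) and 1.33 with its other probe.

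Of the calls named in this comparison Atp5h and Cox8c held with slide as a random block, which gave 1 higher and 1 lower; Sdhd, Ndufa6, Ndufs4 and Uqcrq did not (adjusted p of 0.0999, 0.0599, 0.0867 and 0.253). All EG arrays lie on 1 slide, which holds no other group. The higher count was 6 without the first EG male array, and other scalings gave 10 higher and 7 lower (percentile over all probes), 6 and 17 (quantile) and 6 and 1 (deposited table), and a fit of these groups alone 4 higher. Between EG and ES cells limma called 0 of 71 members in either direction, with 3.97% of all genes higher and 1.84% lower (5.81% in either direction); 12 members had an unadjusted p under 0.05, and the median change was 0.18 against 0.09 for all genes. The largest differences were 0.85 for Cox4i2 and -0.71 for Cox8c, and 0 members were called without any 1 array, but 4 higher and 1 lower in a fit of these groups alone.

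GS cells are cultured germline stem cells and were compared with spermatogonia. In GS cells 16 of 72 members were higher and 3 lower, with 11.5% of all genes higher and 12.9% lower (24.4% in either direction). The median change was 0.32 against 0.02 for all genes. Complex II stood out by count, with 3 of its 4 subunits higher: Sdhd by 1.32, Sdhc by 1.09 and Sdhb by 0.85. None of these 3 calls held with slide as a random block. Sdhd read -2.10 and -1.83 in spermatogonia and -0.56 and -0.72 in GS cells. Sdha, the catalytic subunit, differed by 1.51 and was not called (adjusted p = 0.0825), with -4.08 and -3.69 in spermatogonia and -2.25 and -2.50 in GS cells. Atp5h read -0.85 and -1.03 in spermatogonia and 1.30 and 1.34 in GS cells, a change of 2.26 ± 0.23 (adjusted p = 6.07e-06), and Atp5md changed by 1.84 ± 0.26 (adjusted p = 0.000109). The lower members were Ndufc2 at -0.83, Ndufs7 at -0.90 and Cox4i2 at -1.44.

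Fibroblast markers were high in GS cells, with a summed level of 1.05 to 4.02 against 0.05 to 0.18 in spermatogonia, and their part in these changes was not tested. The higher count was 10 without the first spermatogonia array, the lower count 0 without either spermatogonia array or the first GS array, and with slide as a random block 2 were higher (Atp5h and Atp5md held) and 0 lower. Counts were 15 and 8 with normexp, 17 and 7 with quantile normalization, 3 and 0 in the deposited table, and 4 and 0 in a fit of these groups alone.

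Whole adult testis, which holds all stages of spermatogenesis and the somatic cells around them, differed from spermatogonia in 38 of 72 members, 22 higher and 16 lower, with 25.2% of all genes higher and 19.4% lower (44.6% in either direction). The median change was 0.40 against 0.20 for all genes, and among genes detected on every array 0.40 against -0.37; with a percentile over all probes, quantile normalization and the deposited table it was -0.14, -0.10 and -0.16. By complex the counts were 12 higher and 7 lower of 30 in complex I, 2 and 0 of 4 in complex II, 1 and 0 of 6 in complex III, 3 and 6 of 16 in complex IV and 4 and 3 of 16 in ATP synthase.

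Beside the complex IV forms given above, Ndufc1 read -1.57 and -1.44 in spermatogonia and 1.23 and 1.29 in testis, a change of 2.76 ± 0.33 (adjusted p = 5.11e-06). Atp5h read 1.48 and 1.54 in testis, a change of 2.45 ± 0.23 (adjusted p = 3.55e-07), and Ndufs6, a zinc-binding subunit of complex I, changed by 1.57 ± 0.28 (adjusted p = 0.000198). Cox7a2 was higher by 1.52 ± 0.41 (adjusted p = 0.00632, and 0.0528 with slide as a random block). Among those that were lower, Ndufb11 read 2.30 and 2.07 in spermatogonia and -0.01 and -0.25 in testis, a change of -2.31 ± 0.28 (adjusted p = 5.49e-06), and no other array was under 0.75. Ndufb11, a membrane subunit of complex I, and Cox7b are 2 of the 3 X-linked members. The other X-linked member, Ndufa1, read 0.24 and 0.14 in testis and -0.15 and -0.28 in spermatogonia and was not called. Cox6b1 read 1.02 and 0.93 and then -0.25 and -0.36, a change of -1.28 ± 0.22 (adjusted p = 0.000192), while every other array was at 0.80 or above; its testis partner Cox6b2 had no matched probe. Of the 3 genes for subunit c, Atp5g1 changed by -1.27 and Atp5g2 by -1.04, both called, while Atp5g3 read 1.18 and 1.1 in testis against 1.57 and 1.63 and was not called.

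Without any 1 array 17 to 20 members were higher and 12 to 14 lower, and with slide as a random block 12 and 9, with Cox7b2, Cox7a2, Cox6a2 and Cox7a1 among the calls lost. Counts were 8 and 23 with a percentile over all probes, 13 and 25 with quantile normalization and 4 and 12 in the deposited table, and a fit of these groups alone gave 34 higher. Testis and GS arrays share a slide that holds no spermatogonia, so slide and group cannot be told apart. For Atp5a1 and Ndufv1, called lower, and Ndufa6, called higher, another probe of the gene had the opposite sign.

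**Figure D5:**
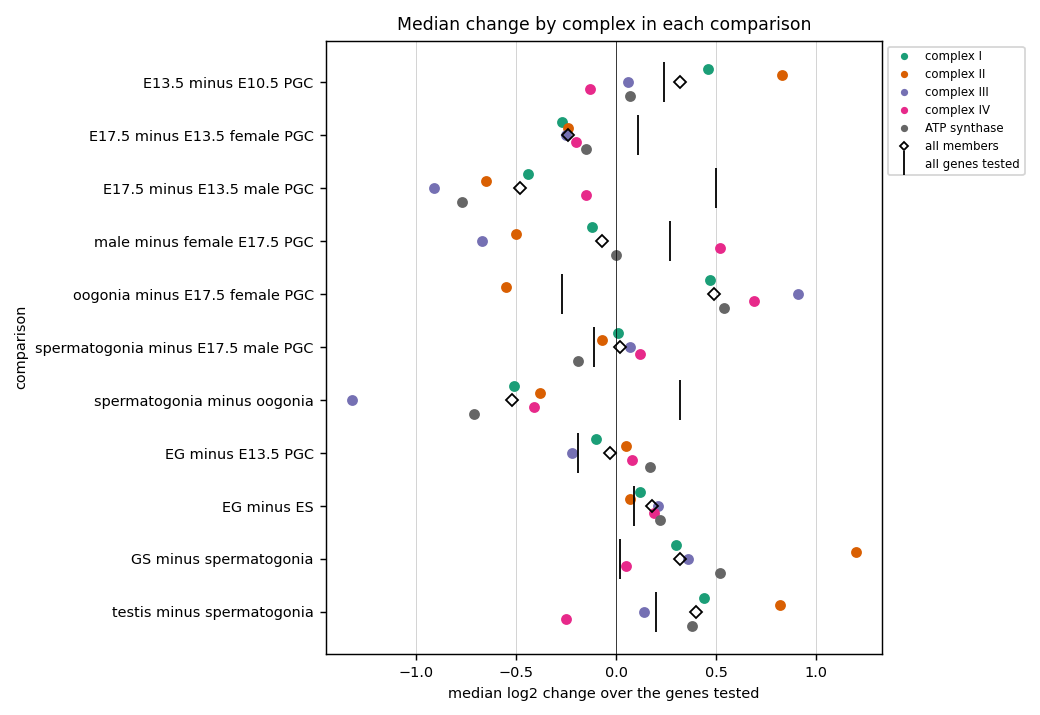
For each comparison the points give the median log2 change of the tested members of each complex, as coloured points, that of all members as a diamond and that of all genes tested as a vertical bar. The complexes part in oogonia against E17.5 female PGC, where complex III has a median of 0.91 and complex II of -0.55, and in males from E13.5 to E17.5, where complex III has -0.91 and ATP synthase -0.77.

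Set across complexes, the median of complex III was -0.91 in males between E13.5 and E17.5. It was 0.91 in oogonia against E17.5 female PGC and -1.32 in spermatogonia against oogonia, comparisons that share the oogonia arrays. Complex II moved apart from the others in oogonia, with a median of -0.55, and in GS cells, with 1.20. It also had the highest median of the complexes from E10.5 to E13.5, 0.83, and in testis, 0.82. Testis and GS cells were set against the same spermatogonia arrays. The medians of complexes III and II rest on 6 and 4 members. Relative to the median of all genes, the members' median lay at -0.98 in males between E13.5 and E17.5 (-0.99 to -0.68 over the scalings tried), at 0.76 in oogonia (0.37 to 1.32) and at -0.84 in spermatogonia against oogonia (-1.30 to -0.39). In EG cells it was 0.16 (-0.42 to 1.43) and in testis 0.20 (-0.10 to 1.9), the lower end in both with quantile normalization and the upper with normexp. All these scalings share the same filter on detection. Among genes detected on every array the medians were -0.54 for members against -0.06 in males between E13.5 and E17.5. They were 0.48 against -0.12 in oogonia and -0.54 against 0.07 in spermatogonia against oogonia. In EG cells they were -0.03 against -0.13, and in testis 0.40 against -0.37. Except in testis these gaps are narrower. The scalings themselves moved the median of all genes, for example from 0.50 to 0.02 in males between E13.5 and E17.5 with a percentile over all probes, and from 0.32 to -0.89 in spermatogonia against oogonia in the deposited table.

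Other mitochondrial genes were counted from lists of the same pathway. Of 27 tested assembly factors, which build the complexes without staying in them, 13 were lower and 1 higher in males at E17.5, among them Cox14 at -1.61 ± 0.28 and Tmem126b at -1.48 ± 0.27; in spermatogonia against oogonia 12 of 32 were lower and 4 higher. Of 11 genes of mitochondrial fusion, fission and cristae 7 were lower and 0 higher in males at E17.5, including the fission GTPase Dnm1l at -2.01 ± 0.28, the fusion GTPase Mfn1 at -1.58 ± 0.36 and the cristae organiser Immt at -1.22 ± 0.19, and 6 were lower and 0 higher in spermatogonia. Genes of the TCA cycle were 4 higher and 4 lower of 15 in males at E17.5, and mitochondrial carriers and import 2 and 3 of 14. Regulators of mitochondrial biogenesis were 4 and 3 of 16, and other chain genes with cytochrome c 0 and 3 of 6. Mitochondrial ribosomal proteins went both ways, with 12 of 63 higher and 17 lower at E17.5. From E13.5 to E17.5 in males 20 of 62 fell and 5 rose, and in EG cells against E13.5 PGC 23 of 66 were higher and 7 lower. Background shares for these comparisons are those given above for all genes. Calls on these lists and their genes, here and below, were not checked under the other scalings, blocks or array omissions.

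Partners of the chain with germ cell forms moved strongly. Cyct, the testis cytochrome c, changed by -3.83 ± 0.39 (adjusted p = 1.18e-06) in EG cells against E13.5 PGC and by 1.53 ± 0.55 (adjusted p = 0.0325) in testis against spermatogonia. Slc25a31, the germ cell ADP/ATP carrier, changed by -6.35 ± 0.39 (adjusted p = 6.8e-09) in EG cells. Cox17, the copper chaperone of complex IV, was lower in male cells, by -1.47 ± 0.25 at E17.5 and -2.07 ± 0.25 in the gonia. Of the regulators of mitochondrial biogenesis and oxidative genes, Tfam, which packages and transcribes mitochondrial DNA, fell by 1.02 ± 0.22 in males between E13.5 and E17.5 (adjusted p = 0.00149) and rose by 1.07 ± 0.22 in oogonia against E17.5 female PGC (adjusted p = 0.0045). Esrrb, an orphan nuclear receptor, was at least 33.1-fold lower at E17.5 than at E13.5 in females and fell by 2.41 ± 0.31 in males. Over the whole list of regulators 3 were higher and 3 lower of 15 in females and 2 and 3 of 15 in males.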

How the data were processed

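RNA from 28 samples was labelled with Cy3 and hybridised to single-colour Agilent mouse arrays. Per the file headers, the deposited signal intensity was extracted with Agilent Feature Extraction 10.5.1.1, adjusted for background and detrended within each array, with no normalization between arrays, and the design's build is mm9. The deposited value table holds log2 signal minus each array's median, found by setting it against the scanner values. Control spots and non-uniform spots were left out. Here log2 signal was scaled to each array's 75th percentile over the 7227 probes well above background on all arrays. Probes were named through RefSeq accessions (16749 probes matched, 27054 did not). A gene entered a test if both replicates of some compared group showed it well above background.

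Groups were compared with limma 3.58.1 in R 4.3.3 over 14 group means (14 residual degrees of freedom), with Benjamini-Hochberg adjustment over all genes tested and a threshold of 0.05. Each gene had a single estimate of spread, shared by all groups. The 2 arrays of each PGC group differ in slide and scan day, while those of every other group share both. For Atp5b the SD within a group was 1.16 in E10.5 female PGC and 0.01 in female EG cells. For such genes the PGC comparisons borrow a spread below their own. The fit with slide as a random block used a correlation of 0.62 within a slide. The tests were checked on simulated data with independent noise on each array. That check cannot cover deviations shared by the arrays of a slide or scan day. Named are the 5 largest called changes in each direction per comparison, restricted isoforms with their partners, the 10 widest and 5 flattest members, and up to 4 called genes of each other list; further called members of a described group were named after their values were seen. The members and lists were chosen with earlier results of these data known. Same-numbered arrays of the PGC deviated together, with a correlation of 0.3 to 0.8 over 30 pairs. Alternatives were a percentile over all probes, quantile normalization, normexp (on median signals), the deposited table, no filter, the mean over probes, only the groups compared, replicate and scan-day blocks, slide as a random block, and each array left out; those for single members were chosen after seeing the data. Values of 1 member are not reported here, though counts and medians over the members include it. The arrays' number, 2 per group, limits the precision.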

Additional observations from a re-analysis of the deposited data

Results flagged for a closer look

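The change from E13.5 to E17.5 differed between male and female PGC for 15 members by limma's interaction term, and each value here is the male minus the female log2 change. It was positive for Cox7a1 (4.69), Cox4i2 (2.55), Ndufs8 (1.70), Ndufb2 (1.23) and Uqcrb (1.14). It was negative for Atp5pb (-3.56), Ndufa1 (-2.46), Cox5a (-2.03), Ndufc1 (-1.95), Ndufa4 (-1.79), Atp5md (-1.49), Ndufv2 (-1.46), Atp5h (-1.29) and Cox6c (-1.10). The values of Cox4i2 and Atp5pb are not exact sizes: Cox4i2 was not well above background on the E13.5 male arrays and was so on 1 of 2 arrays in each female group, and Atp5pb was not on either E17.5 male array. Among all genes tested 28.4% differed in this way, a larger share than among the members. With scan day as a block the calls of Atp5h, Atp5md, Cox4i2, Cox5a, Cox6c, Ndufb2 and Uqcrb were lost, and without single arrays those of Cox6c, Ndufb2, Ndufs8 and Uqcrb. The summed level of the Sertoli markers lay between 1.29 and 2.36 in E17.5 male PGC and between -3.61 and -2.63 in E17.5 female PGC, and its part in these differences was not tested.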

How the results depend on the processing

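Counts of called members (main value in brackets) moved by over 1.5 times as follows. For E10.5 to E13.5, higher (16) was 2 with a percentile over all probes, 1 in the deposited table, 5 with no filter, 4 with normexp, 0 with only these groups in the fit and 5 with a scan-day block, and lower (0) was 2 with all probes, 1 with a replicate block and 4 with slide as a random block. For E13.5 to E17.5 in females, higher (3) was 0 in the deposited table and 1 with no filter, normexp, only these groups and the scan-day block, and lower (11) was 3 in the deposited table, 1 with only these groups and 21 with the slide block. In males, higher (5) was 2 with all probes, 2 in the deposited table, 1 with normexp, 0 with only these groups and 8 with the slide block, and lower (24) was 38, 1, 15 and 0 in the first 4 of these and 14 with the scan-day block. Between the sexes at E17.5, higher (13) was 5 with all probes, 2 in the deposited table, 8 with normexp, 5 with only these groups and 8 with the scan-day block, and lower (19) was 12 in the deposited table and 8 with only these groups. In oogonia, higher (17) was 30 with all probes, 3 in the deposited table, 11 with no filter, 0 with only these groups and 2 with the slide block, and lower (2) was 0 in all of these and with normexp and quantile normalization.

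For spermatogonia against E17.5 male PGC, higher (3) was 0 in the deposited table, with normexp, only these groups and the slide block, 1 with no filter and 7 with quantile normalization, and lower (0) was 1 with the replicate block. Against oogonia, higher (5) was 3 with all probes and 0 in the deposited table, and lower (24) was 45 with all probes. For EG cells against E13.5 PGC, higher (10) was 6 in the deposited table, 4 with only these groups, 6 with quantile normalization and 1 with the slide block, and lower (14) was 7 with all probes, 1 in the deposited table and 1 with the slide block. Against ES cells (0 and 0) only these groups gave 4 higher and 1 lower. In GS cells, higher (16) was 3 in the deposited table, 4 with only these groups and 2 with the slide block, and lower (3) was 0 in each of these, 5 with no filter, 8 with normexp and 7 with quantile normalization. In testis, higher (22) was 8 with all probes, 4 in the deposited table, 34 with only these groups, 13 with quantile normalization and 12 with the slide block, and lower (16) was 25 with quantile normalization and 9 with the slide block. The sex difference in the change (15) was 3 in the deposited table, 6 with normexp, 4 with only these groups, 7 with the scan-day block and 26 with the slide block. The replicate block moved no other of these counts by over 1.5 times. The causes were not tested.

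Leaving out 1 array gave ranges, higher and then lower, of 5 to 21 and 0 to 2 (E10.5 to E13.5), 1 to 3 and 8 to 14 (females to E17.5), 3 to 6 and 9 to 23 (males), 7 to 12 and 13 to 17 (sexes at E17.5), 4 to 18 and 0 to 1 (oogonia), 0 to 1 and 0 (spermatogonia against E17.5 male PGC), 5 and 21 to 23 (against oogonia), 6 to 9 and 10 to 13 (EG cells), 0 and 0 (against ES cells), 10 to 13 and 0 to 3 (GS cells) and 17 to 20 and 12 to 14 (testis), and 11 to 15 for the sex difference in the change.

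For named members 475 of 600 values kept direction and call and 123 lost the call, 58 of them in the deposited table, where Sdhd in oogonia (0.01) and Cox6a1 in EG cells (0.18) reversed. In alternatives chosen after seeing the data, 470 of 596 values without 1 array, 40 of 55 with the scan-day block and 80 of 115 with the slide block kept the call. Signal over background limits Atp5pb, Cox4i2, Cox6a2, Cox7a2l, Cox7b2, Cox8b, Cox8c and Sdha, which were not well above background on every array. Atp5l missed that mark through a single spot: it read -8.14 on the second E10.5 female array and -0.48 to 0.56 on all others. Its change from E10.5 to E13.5 was -0.15 between the first arrays and 4.02 between the second.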
